A study of Camellia sinensis with 9 samples.

Results

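Strandless intergenic transcripts of the tea plant, Camellia sinensis, were examined in flowers, roots and leaves. They are the rows of the deposited abundance table that carry class code u (between annotated genes) and no strand, at loci holding a single transcript. There were 13971 of them among 109879 assembled transcripts and 61592 loci. Each of the 13971 strandless transcripts of class u was the only transcript of its locus, so the last condition removed none. The remaining 700 strandless rows have class p (605) or class i (95).

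A transcript assembler such as StringTie reads the strand from spliced reads when the library does not record it, so a row without a strand usually rests on unspliced reads. Rows of this kind can hold unannotated genes, long non-coding RNAs, detached ends of annotated genes, transcribed repeats, precursors of small RNAs, or traces of unspliced nuclear RNA and DNA. Ribosomal RNA removal, the only depletion named in the labels, keeps RNA without a poly(A) tail in the library.

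The series profiled untreated flower, root and leaf tissue with 3 libraries for each. Per the labels, total RNA was isolated with TRIzol. The labels give neither cultivar, age nor harvest. They do not tie the libraries of a tissue to different plants, and the spread that the p-values measure may therefore be technical. The flower libraries are called 1, 2 and 45, the root libraries 13, 23 and 33, and the leaf libraries 1 and 41 by the numbers in their titles. The third leaf column bears a number found in none of the leaf titles and is called the unnumbered leaf library. No identifier among the 13971 occurs in the RefSeq gene table (0 matches), and the deposited table names no scaffold. Loci are therefore given by identifier and by start and end along an unnamed scaffold, and no sequence could be read for them.

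The transcripts were short, and their FPKM could be turned back into whole fragments. Spans ran from 200 to 11879 nt with a median of 464 nt; 5953 (42.6%) spanned under 400 nt and 494 spanned at least 2000 nt. FPKM is a fragment count scaled by transcript length and by library size, so values of 1 transcript in 1 library are whole multiples of what 1 fragment is worth. With a single length term per span, 100% of the values below 10 fragments lay within 0.05 of a whole number in each of the 9 libraries (4613 to 5276 values per library). The same held under 400 nt (100%), but there the worth of 1 fragment was set at each span from the same values. That part of the result was thus partly built in. From 400 nt upwards, the span thus served as the transcript length in the authors' FPKM.

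Short spans made 1 fragment worth much FPKM. At 200 nt, 1 fragment was worth 2.44 FPKM in flower 1, 1.88 in flower 2 and 1.89 in flower 45. It was worth 1.63, 2.14 and 1.85 FPKM in roots 13, 23 and 33, and 1.22, 1.40 and 1.40 FPKM in leaf 1, the unnumbered leaf library and leaf 41. At 400 nt the range over libraries was 0.156 to 0.296 FPKM. A single fragment reached 1 FPKM in at least 1 library for 2135 transcripts, up to a span of 251 nt, and in all 9 libraries for 494. At 600 to 999 nt, 7 to 26 fragments were needed for 1 FPKM.

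**Figure D1:**
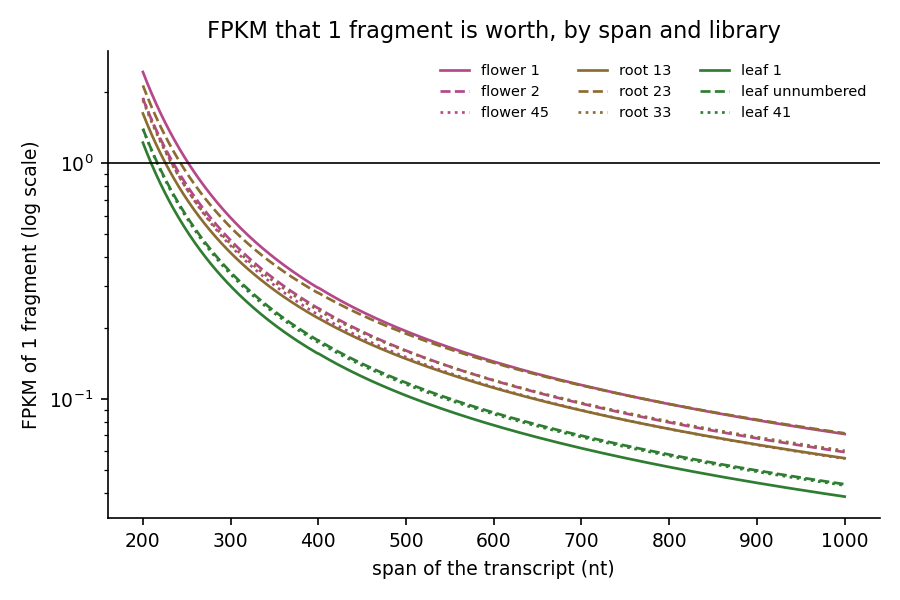
FPKM that 1 fragment is worth (log scale) against the span of a strandless transcript in nt, 1 line for each of 9 libraries, with a horizontal line at 1 FPKM. The curves rise steeply under 400 nt and last reach 1 FPKM at 209 nt (leaf 1) to 251 nt (flower 1); leaf lines lie lowest and flower 1 highest at 200 nt.

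Summed over the 9 libraries, a transcript held a median of 35 fragments, with quartiles of 11 and 118 and a highest value of 192512. No fragment was counted in any library for 209 transcripts, which allows up to 3 fragments in each library, and 2790 had a fragment in all 9. Recovered fragments totalled 685075, 639631 and 538036 in flowers 1, 2 and 45. Totals were 506259, 508327 and 517123 in roots 13, 23 and 33, and 433947, 409802 and 452413 in leaf 1, the unnumbered leaf library and leaf 41. These totals rest on sequencing depth as well as on RNA, and the depth of the whole libraries is unknown. At 1000 nt, 1 fragment was worth 0.0558 to 0.0710 FPKM in flower, 0.0561 to 0.0715 in root and 0.0385 to 0.0435 in leaf. The authors' FPKM thus scaled leaf libraries by the largest totals, although the fewest fragments were recovered there. How those scaling totals relate to depth is not known. In tissue samples, fewer cells of a type and less RNA per cell cannot be told apart.

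In each tissue, 1 library stood apart from the others in these transcripts. Pearson's r of log2(FPKM + 1) across the 13971 transcripts, which share a library and are no replicates, was 0.89 between flowers 1 and 45 but 0.59 between flower 2 and each of them. It was 0.90 between roots 23 and 33, against 0.77 and 0.78 for root 13 with these. It was 0.89 between leaf 1 and the unnumbered leaf library, against 0.56 and 0.57 for leaf 41 with these. Between tissues it ran from 0.26 to 0.50, and the highest value joined root 33 and leaf 41.

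Flower 2 held RNA that no other library showed. At 158 transcripts, at least 10 fragments were counted in flower 2 and 0 in each of the other 8 libraries. They made up 4.83% of the 3272 transcripts that reached 10 fragments in flower 2, summed to 5356 fragments and had a median span of 543 nt. Flowers 1 and 45 had 1 such transcript each. Root 13 had 38, against 1 and 2 in roots 23 and 33, and leaf 41 had 31, against 4 in leaf 1 and 0 in the unnumbered leaf library. The highest of them had 408 fragments in flower 2, 215 in root 13 and 259 in leaf 41. No such transcript entered a test, since each was present in 1 library only.

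**Figure D2:**
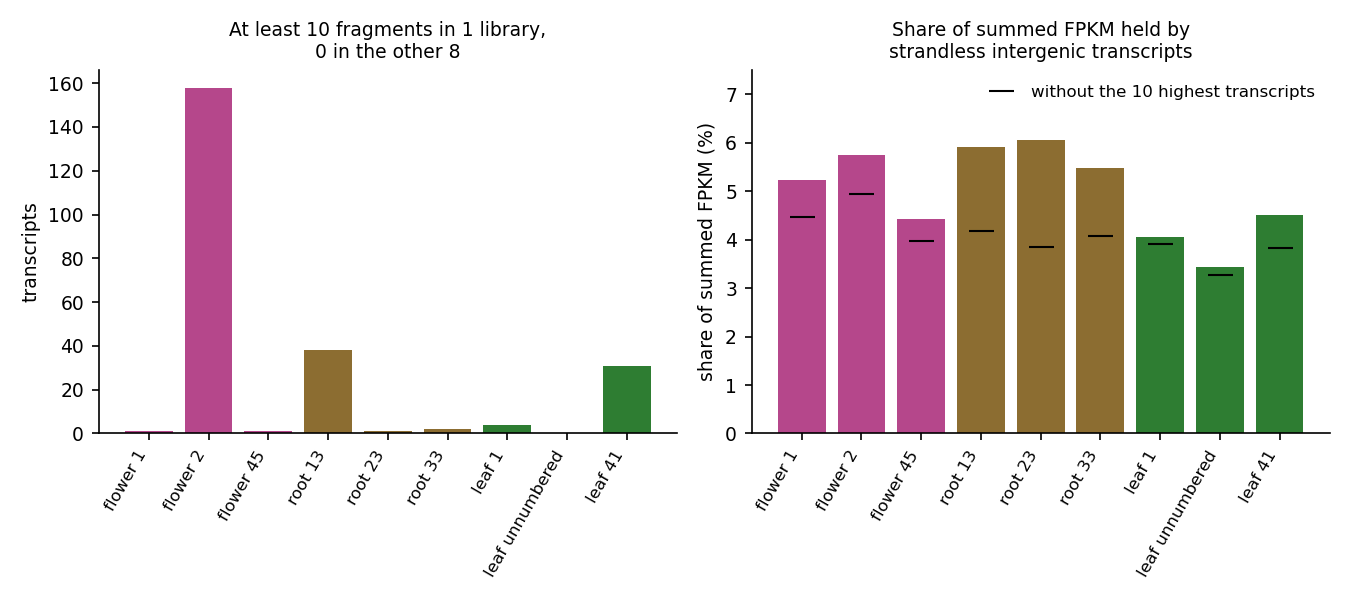
Left, number of strandless intergenic transcripts with at least 10 fragments in the library named and 0 in the other 8; right, their share of summed FPKM in percent (bars), with a dash for the share without the 10 transcripts of highest mean. Flower 2 stands out on the left with 158 transcripts, and root bars on the right drop most when the 10 highest are left out.

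Leaf 41 stood above the other leaf libraries at many transcripts high in root. With leaf 41 left out of the fit described below, 1113 transcripts were higher in root than in both other tissues. Their median level was 4.77, 5.01 and 4.80 FPKM in roots 13, 23 and 33, and 0.0272, 0.0271 and 0.612 FPKM in leaf 1, the unnumbered leaf library and leaf 41. Leaf 41 exceeded both other leaf libraries at 656 of them (58.9%), where over all 5837 tested transcripts it did so at 41.1%. The 534 transcripts higher in leaf had medians of 5.12, 5.03 and 2.51 FPKM in the same 3 leaf libraries. Leaf 41 lay below both others at 359 of these (67.2%), against 34.8% of all tested transcripts. The 637 transcripts higher in flower showed no such gap, with medians of 0.196, 0.174 and 0.162 FPKM in those leaf libraries. All 3 sets were chosen on leaf 1 and the unnumbered leaf library, so a library left out can lie less far out through that choice alone. All tested transcripts were not chosen that way and are no matched baseline. The part of this choice in the gaps was not tested.

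**Figure D3:**
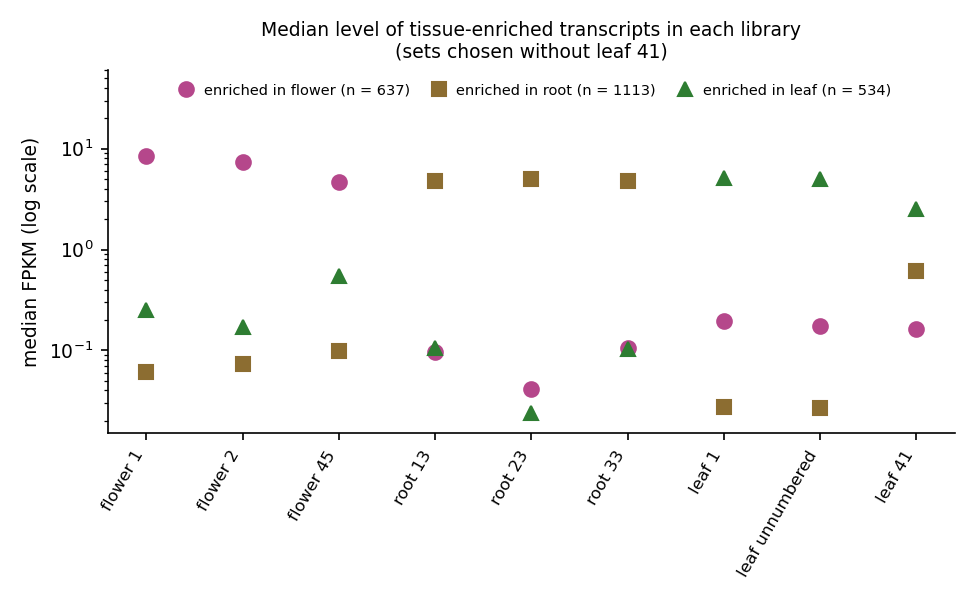
Median FPKM (log scale) in each library of the transcripts higher in flower (637), root (1113) or leaf (534) than in both other tissues, the sets being chosen without leaf 41. Squares for root-enriched transcripts lie near 0.03 FPKM in leaf 1 and the unnumbered leaf library and at 0.612 FPKM in leaf 41.

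Most of these transcripts were scarce. The mean over all libraries had a median of 0.664 FPKM and quartiles of 0.343 and 1.48 FPKM; 4977 transcripts averaged at least 1 FPKM, 622 at least 10 and 45 at least 100. In flower, 4194 ± 157 transcripts reached 1 FPKM. In root 4040 ± 122 did, and in leaf 4329 ± 300 (SD, n = 3 each). The tissues overlapped in flower and leaf, in flower and root, and in root and leaf (exact two-sided permutation tests, p = 0.6, 0.3 and 0.3; adjusted over 8 tests 0.6, 0.343 and 0.343). Counted as at least 3 fragments instead, flowers had 5673 ± 197, roots 5416 ± 311 and leaves 6733 ± 341 transcripts, and leaf lay above both others without overlap (exact permutation p = 0.1 against each, unadjusted). The FPKM worth of a fragment was lowest in leaf, and its part in that count was not tested.

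As a group they held a small share of all FPKM summed, with 5.14% ± 0.660 in flower, 5.82% ± 0.298 in root and 4.003% ± 0.544 in leaf (SD, n = 3 each). Root did not overlap leaf (p = 0.1, exact permutation test, the smallest p that 3 against 3 libraries can give; adjusted over 8 tests 0.267). That gap shrank without short or very abundant transcripts. Without the 10 of highest mean, root and leaf overlapped, at 4.04% ± 0.173 in root and 3.67% ± 0.352 in leaf (exact permutation p = 0.2). Without those under 400 nt the shares were 3.25% ± 0.0808 in root and 2.60% ± 0.232 in leaf. That is a difference of 0.642 percentage points against 1.81 with them. Root still did not overlap leaf there (exact permutation p = 0.1, unadjusted). With all transcripts counted, flower overlapped leaf and root (exact permutation p = 0.2 each, adjusted 0.32). Flower lay above leaf without overlap once transcripts under 400 nt were left out (exact permutation p = 0.1, unadjusted). It also did so without the 10 highest, at 4.46% ± 0.480 in flower (exact permutation p = 0.1, unadjusted). The excess of root over flower turned round without transcripts under 400 nt, at 3.97% ± 0.528 in flower and 3.25% ± 0.0808 in root. The 2 tissues did not overlap there (exact permutation p = 0.1, unadjusted). Without the 10 highest, flower was also above root on average (exact permutation p = 0.3). Transcripts under 400 nt made up 22.8% ± 1.60 of the group's FPKM in flower, against 44.0% ± 4.36 in root and 34.6% ± 3.31 in leaf. The same transcripts held 3.30% ± 0.409 of the group's fragments in flower, 6.81% ± 0.644 in root and 5.94% ± 0.607 in leaf. Among those under 400 nt, MSTRG.24705 (201 nt) alone held 10688, 16696 and 7047 FPKM in roots 13, 23 and 33. The whole group summed to 51144, 65882 and 50099 FPKM there. This transcript held 124, 136 and 1861 of 25266, 26344 and 32711 FPKM in leaf 1, the unnumbered leaf library and leaf 41. In flowers 1, 2 and 45 it held 1233, 62.5 and 744 of 65403, 55314 and 40528 FPKM. Leaving out short transcripts or the 10 highest each dropped it.

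Strandless transcripts were compared with the 11070 stranded intergenic transcripts that are also alone at their locus. In each of the 9 libraries a smaller share of them reached 1 FPKM, 28.1% to 32.3% against 37.4% to 43.6% of the stranded ones. The mean difference was -9.46 percentage points ± 1.87 (SD, n = 9 libraries; exact sign-flip permutation test, p = 0.00391, adjusted over 8 tests 0.0156). Their median level was also lower in 9 of 9 libraries, by -0.303 FPKM ± 0.0485 on average (exact permutation p = 0.00391, adjusted 0.0156). Both p-values are the smallest that 9 libraries can give. They measure how far the libraries shared a direction at the same loci, and libraries of 1 tissue resemble each other. Stranded transcripts are longer. With both sets limited to 400 to 1000 nt (5499 strandless and 2937 stranded transcripts), the differences were -6.04 percentage points and -0.131 FPKM, again in the same direction in 9 of 9 libraries.

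For the comparisons between tissues, a transcript had to reach 1 FPKM in 3 or more libraries, which left 5837 of the 13971 (41.8%). Of these, 3619 had at least 10 fragments in at least 3 libraries and 2218 had fewer, while 1034 transcripts with that many fragments missed the FPKM limit. The filter passed 368 transcripts that reached 1 FPKM in flower libraries only, 573 in root libraries only and 260 in leaf libraries only; such transcripts had to differ, so counts over the 5837 do not describe all 13971. A difference was called at a limma adjusted p under 0.05, over all 36342 loci tested, and a size of at least 1 on the scale of log2(FPKM + 1), which understates changes of low values.

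Flower was set against leaf, the organ of reproduction against the photosynthetic one. Of the 5837 strandless transcripts tested, 926 (15.9%) were higher in flower and 692 (11.9%) lower. Over all loci tested the called shares were 20.3% higher and 17.3% lower, and 37.6% in either direction, against 27.7% of the strandless transcripts. At 400 to 1000 nt the shares called in either direction were close, 29.97% of strandless and 29.25% of stranded intergenic transcripts alone at their locus. The median difference was -0.01 over the 5837 and -0.02 over all loci tested. Called differences of at least 3 on the log2 scale, or 8-fold, numbered 216 higher (3.70%) and 69 lower (1.18%). All loci tested leaned the same way, with 5.95% higher and 2.38% lower by that much. Values of the groups did not overlap at 2209 transcripts (37.8%), against 51.5% of all loci tested. Scaling each library to an equal sum turned the balance, since 43.2% of calls were then higher in flower, against 57.2% as deposited. That scaling moved the median difference of all loci tested to -0.36 for flower minus leaf, -0.08 for flower minus root and -0.27 for root minus leaf. Without flower 2, 62.2% of 1654 calls were higher in flower, and without leaf 41, 53.0% of 1675 were.

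The transcript furthest above leaf in flower was MSTRG.43376 (positions 567235 to 568152, 918 nt). It stood at 638, 237 and 398 FPKM in flowers 1, 2 and 45 and at 0.344, 0.630 and 0.239 FPKM in leaf 1, the unnumbered leaf library and leaf 41. Each flower library thus lay far above the highest leaf library, and the fragments behind these values numbered 8048, 3571 and 6388 in flower and 8, 13 and 5 in leaf. The difference was 8.14 ± 0.35 (SE; adjusted p = 1.74e-06, limma). Roots were as low as leaves, at 0.375, 0.0796 and 0.0672 FPKM. Neighbours named here were found by locus number, and a shared scaffold is inferred from ascending positions. The one before it, MSTRG.43375, a stranded intergenic transcript that ends 6944 nt away, stood at 1.81, 3.10 and 1.20 FPKM in flower and was listed at 0 in all root and leaf libraries.

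MSTRG.7918 (positions 438022 to 438773, 752 nt) came next, at 608, 271 and 275 FPKM in flowers 1, 2 and 45 and 1.23, 0.253 and 0.437 FPKM in leaf 1, the unnumbered leaf library and leaf 41. It differed by 7.81 ± 0.56 (SE; adjusted p = 1.55e-05, limma) without overlap. In roots 13, 23 and 33 it stood at 0.0810, 3.31 and 2.88 FPKM, so root 13 lay below the other roots.

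In the other direction, MSTRG.28958 (positions 54493 to 55354, 862 nt) stood at 0.0860, 0.288 and 0.878 FPKM in flowers 1, 2 and 45 and at 74.7, 82.4 and 133 FPKM in leaf 1, the unnumbered leaf library and leaf 41. Leaf 41 was the highest leaf library here, and only 1, 4 and 13 fragments came from the flower libraries. The difference was -6.10 ± 0.75 (SE; adjusted p = 0.000229, limma). Root was between the other tissues, at 1.02, 19.3 and 12.7 FPKM.

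MSTRG.37305 (positions 183699 to 184663, 965 nt) stood at 0.297, 0 and 0.350 FPKM in flowers 1, 2 and 45 and at 115, 99.1 and 31.2 FPKM in leaf 1, the unnumbered leaf library and leaf 41. The 0 in flower 2 allows up to 0.187 FPKM, which is 3 fragments. Leaf 41 was the lowest leaf library, yet far above every flower and root library. The difference was -5.90 ± 0.47 (SE; adjusted p = 2.47e-05, limma), and -6.48 without leaf 41 (adjusted p = 8.59e-06, limma). The strandless transcript MSTRG.37304, which ends 1470 nt before it, had values above 0 in flower 2 (0.171 FPKM) and leaf 41 (1.24 FPKM) and was listed at 0 in the other 7 libraries.

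Flower was then set against root, which gave the most calls. In flower, 977 strandless transcripts (16.7%) were higher and 1336 (22.9%) lower than in root. Over all loci tested, 21.8% were called higher and 22.5% lower. In either direction 39.6% were called, against 44.4% of all loci tested, and the median difference was -0.05 against -0.01. Between 400 and 1000 nt, 43.6% of strandless and 40.1% of stranded intergenic transcripts alone at their locus were called. That difference between classes was not tested. Past 8-fold, 217 were higher (3.72%) and 255 lower (4.37%), against 6.51% and 4.71% of all loci tested. The groups did not overlap at 2871 transcripts (49.2%), against 60.6% of all loci. Without flower 2, 47.5% of 2508 calls were higher in flower, against 42.2% with it.

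MSTRG.32272 (positions 140360 to 141803, 1444 nt) had both the largest excess over root and the most fragments of any strandless transcript. It stood at 3566, 2950 and 1188 FPKM in flowers 1, 2 and 45 and at 0.542, 0.369 and 1.79 FPKM in roots 13, 23 and 33. Its 78511, 77264 and 33183 flower fragments compare with 15, 8 and 46 in root, and the groups were far apart. The difference was 10.33 ± 0.64 (SE; adjusted p = 4.25e-06, limma). Leaf was between them, at 36.2, 47.6 and 8.75 FPKM in leaf 1, the unnumbered leaf library and leaf 41, with leaf 41 the lowest. The strandless transcript numbered just before it, MSTRG.32271, ends 4383 nt before its start. It was also seen in flower, at 4.49, 4.002 and 1.42 FPKM, and was listed at 0 in all root libraries.

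MSTRG.53721 (positions 27200 to 27625, 426 nt) stood at 2740, 3184 and 945 FPKM in flowers 1, 2 and 45 and at 0.391, 1.498 and 3.80 FPKM in roots 13, 23 and 33. It differed by 9.63 ± 0.64 (SE; adjusted p = 5.94e-06, limma). As in MSTRG.32272, flower 45 was the lowest flower library and leaf 41, at 7.21 FPKM, was below the other leaf libraries at 21.3 and 25.6 FPKM. The annotated locus numbered before it, MSTRG.53720, ends 6837 nt away and averaged 88.6 ± 51.8 FPKM in flower and 21.4 ± 3.54 in root (SD, n = 3 each). The nearer neighbour, the strandless transcript MSTRG.53722 (positions 32381 to 32783), starts 4755 nt after it and was not tested. It averaged 0.251 ± 0.0352 FPKM in flower, 0.0924 ± 0.160 FPKM in root and 0.543 ± 0.213 FPKM in leaf. At 400 nt, 1 fragment was worth 0.296, 0.243 and 0.228 FPKM in flowers 1, 2 and 45. Its values there were 0.291, 0.239 and 0.224 FPKM, so they lie at the floor. Root had a value above 0 in root 23 only, 0.277 FPKM, where 1 fragment was worth 0.282 FPKM at 400 nt.

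Root exceeded flower most at MSTRG.476 (positions 539551 to 540003, 453 nt), with 1.62, 1.14 and 2.86 FPKM in flowers 1, 2 and 45 and 1172, 1292 and 871 FPKM in roots 13, 23 and 33. The root libraries were close to each other and every flower library was far below them. The difference was -8.62 ± 1.22 (SE; adjusted p = 0.00038, limma), and the SE also draws on leaf, where leaf 41 stood at 77.5 FPKM and the others at 0.736 and 1.11. Without leaf 41 the adjusted p was 7.54e-07 (limma). The stranded intergenic transcript numbered after it, MSTRG.477 on the plus strand, starts 1208 nt beyond its end and was also high in root. It stood at 0.949, 0 and 0.847 FPKM in flowers 1, 2 and 45, at 167, 192 and 179 FPKM in roots 13, 23 and 33, and at 0, 0.495 and 26.8 FPKM in leaf 1, the unnumbered leaf library and leaf 41.

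MSTRG.27568 (positions 323198 to 324088, 891 nt) followed, with 0.741, 0.276 and 0.259 FPKM in flowers 1, 2 and 45 and 287, 814 and 484 FPKM in roots 13, 23 and 33. It differed by -8.43 ± 0.36 (SE; adjusted p = 7.82e-07, limma). Here leaf 41 did not stand apart, at 0.597 FPKM against 0.491 and 0.403 in the other leaf libraries. If both lie on the same scaffold, it is inside the span of MSTRG.27567, an intergenic locus of several transcripts on the plus strand, whose levels were much more even, at 5.11 ± 1.07 FPKM in flower, 7.41 ± 0.396 FPKM in root and 9.29 ± 0.336 FPKM in leaf (SD, n = 3 each).

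Root was set against leaf last, the below-ground organ against the green one. In root, 1258 strandless transcripts (21.6%) were higher and 710 (12.2%) lower. Among all loci tested 19.8% were called higher and 15.5% lower. In either direction 33.7% were called, against 35.3% of all loci tested, and the median difference was 0.01 against 0. Between 400 and 1000 nt, 35.97% of strandless and 30.1% of stranded intergenic transcripts alone at their locus were called. That difference between classes was not tested. Past 8-fold, 265 were higher (4.54%) and 94 lower (1.61%), against 4.57% and 3.58% of all loci tested. The groups did not overlap at 2767 transcripts (47.4%), against 54.1% of all loci. Of the calls, 63.9% were higher in root as deposited and 53.3% with equal sums. A fit of recovered fragments gave 53.8%, but it also used another filter and the 4653 transcripts with at least 10 fragments in at least 3 libraries alone. Without leaf 41 there were 2353 calls, 58.9% of them higher in root.

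The largest excess in root was again at MSTRG.27568, whose values are given above, with a difference of 8.34 ± 0.36 (SE; adjusted p = 1.33e-06, limma). MSTRG.47538 (positions 18580 to 19580, 1001 nt) came next, at 1185, 61.9 and 393 FPKM in roots 13, 23 and 33 and 0.115, 0.0434 and 0.0858 FPKM in leaf 1, the unnumbered leaf library and leaf 41. The root libraries themselves were widely spread, with 21160, 867 and 6530 fragments, while leaf had 3, 1 and 2. The difference was 8.16 ± 0.85 (SE; adjusted p = 0.000103, limma). The strandless transcript MSTRG.47537 (positions 16953 to 17224), which ends 1355 nt before it, was not tested. It stood at 0.781, 2.48 and 0 FPKM in flowers 1, 2 and 45 and at 0.545 FPKM in root 13. It was listed at 0 in the other roots and all leaves. At 250 and 300 nt, 1 fragment was worth 0.704 and 0.417 FPKM in root 13 and 1.02 and 0.587 FPKM in flower 1. With values this near the floor, whether it shares the pattern of MSTRG.47538 cannot be read.

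Leaf exceeded root most at MSTRG.37620 (positions 128359 to 129084, 726 nt), with 0.170, 0 and 0.183 FPKM in roots 13, 23 and 33 and 53.4, 92.4 and 93.4 FPKM in leaf 1, the unnumbered leaf library and leaf 41. The 0 in root 23 allows up to 0.325 FPKM. The leaf libraries were alike, and the difference was -6.13 ± 0.43 (SE; adjusted p = 1.39e-05, limma).

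MSTRG.49541 (positions 286 to 1016, 731 nt) stood at 0.168, 0.215 and 0.181 FPKM in roots 13, 23 and 33 and at 215, 111 and 10.8 FPKM in leaf 1, the unnumbered leaf library and leaf 41. Leaf 41 was thus far below the others but still above every root library. The difference was -5.79 ± 0.95 (SE; adjusted p = 0.00131, limma), and -7.03 without leaf 41. The intergenic locus MSTRG.49540, which has several transcripts on the minus strand, overlaps it if both lie on the same scaffold. It was highest in flower, at 140 ± 33.5 FPKM in flower, 34.1 ± 7.06 FPKM in root and 18.2 ± 6.13 FPKM in leaf (SD, n = 3 each).

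**Figure D4:**
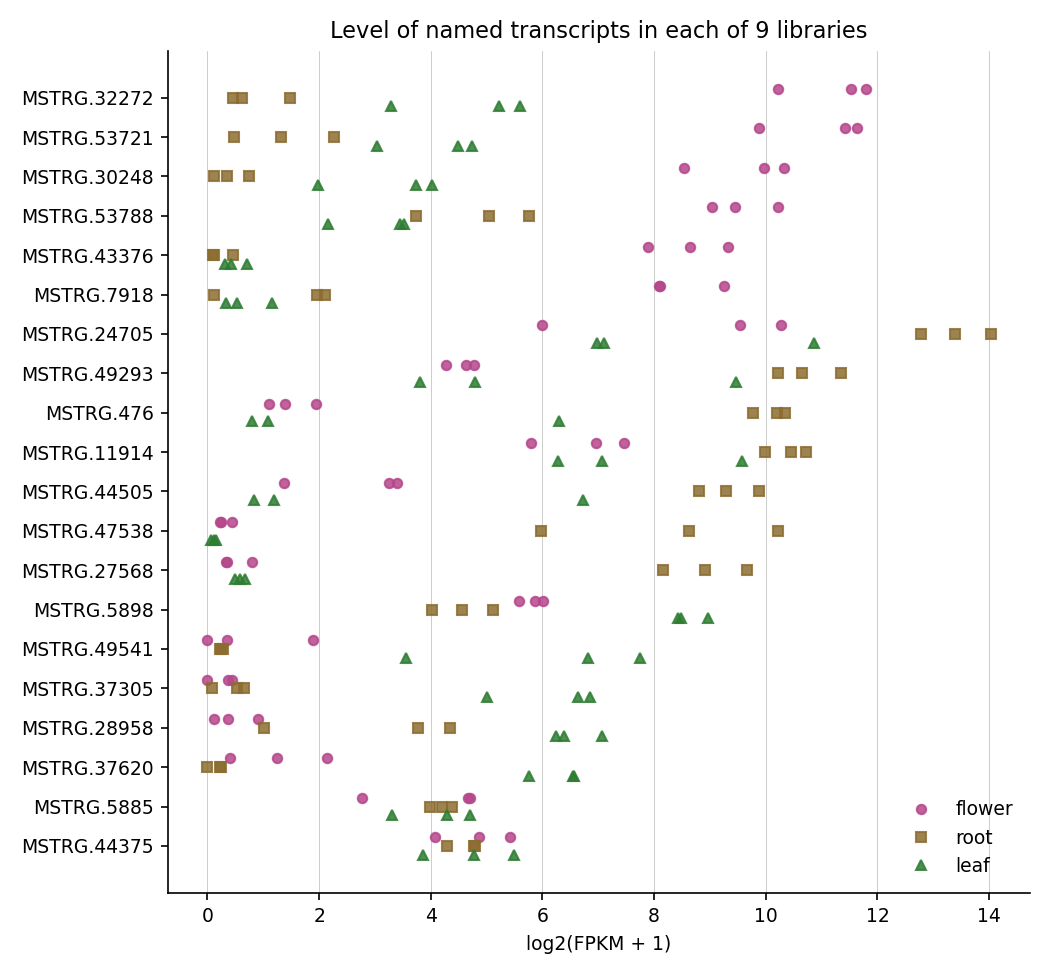
log2(FPKM + 1) of 20 named strandless transcripts, 1 point per library, with flower (circles) drawn above root (squares) and leaf (triangles) in each row. Transcripts high in flower come first, then root and leaf, and the 2 lowest rows are even ones; 1 leaf triangle, leaf 41, lies well above the other leaf triangles at MSTRG.24705, MSTRG.49293, MSTRG.476, MSTRG.11914 and MSTRG.44505.

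A transcript was called tissue-enriched where it was higher than in both other tissues. Of those tested, 677 were flower-enriched (11.6%), 995 root-enriched (17.0%) and 407 leaf-enriched (6.97%). All loci tested gave 14.2% for flower, 13.5% for root and 8.21% for leaf. The filter had passed 368, 573 and 260 of the 5837 through flower, root or leaf libraries only. Such transcripts lean to the tissue that passed them, and their matching number over all loci is not given. The shares therefore do not measure enrichment over all 13971. A set joins 2 comparisons with libraries in common. Median levels in the own tissue were 6.89 FPKM for flower-enriched, 5.15 for root-enriched and 4.71 for leaf-enriched transcripts, with median spans of 637, 551 and 571 nt. At least 10 fragments in at least 3 libraries backed 504, 681 and 290 of them.

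Root had the most enriched transcripts in 2 other fits too. Recovered fragments, with that other filter and set, gave 528 for flower, 719 for root and 424 for leaf. Equal sums gave 565, 911 and 582, so the order of flower and leaf turned round there. Among stranded intergenic transcripts alone at their locus 12.7% of tested loci were enriched in flower, against 13.7% in root and 7.45% in leaf. For annotated loci the shares were 16.1% (flower), 12.4% (root) and 8.93% (leaf). Between 400 and 1000 nt, 13.2% of 2302 strandless transcripts were enriched in flower, 18.6% in root and 6.69% in leaf. In the same range, 12.4%, 13.8% and 6.93% of 1487 stranded transcripts were. These shares are descriptions of the loci tested, and their difference between classes was not tested.

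**Figure D5:**
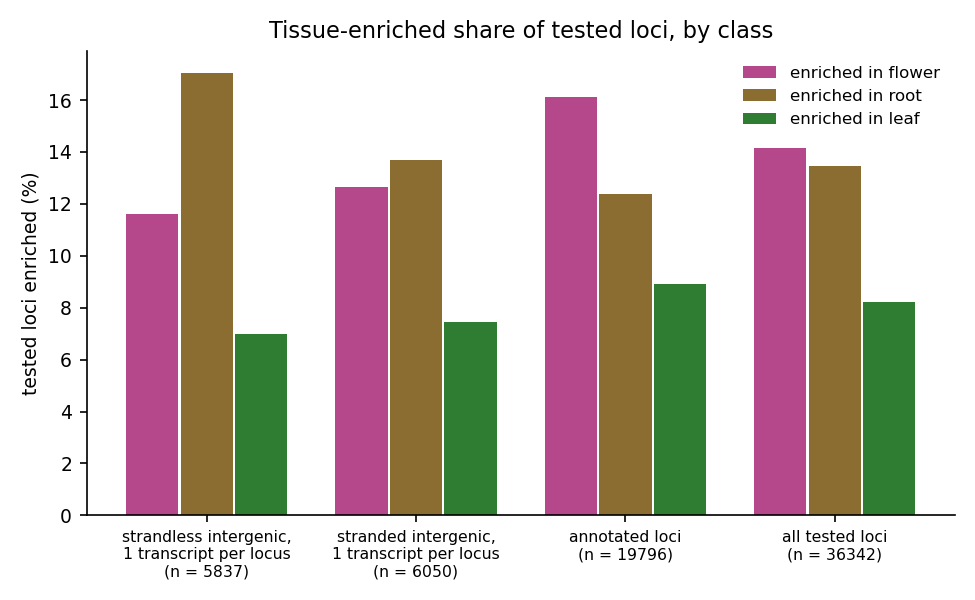
Percent of tested loci called higher in flower, root or leaf than in both other tissues, for strandless intergenic transcripts, stranded intergenic transcripts alone at their locus, annotated loci and all tested loci. Root bars run from 12.4% in annotated loci to 17.0% in strandless transcripts.

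The tissue specificity index tau, which is 0 for equal tissue means and 1 where a single tissue holds all of the signal, had a median of 0.733 over the 5837 transcripts tested. Over all loci tested it was 0.649, and over tested annotated loci 0.618. Stranded intergenic transcripts alone at their locus had a median of 0.680. At 400 to 1000 nt the medians were 0.730 for strandless and 0.688 for stranded transcripts. The 620 tested loci of the remaining classes reached 0.737. These can include the strandless rows of class p or i. They therefore do not show whether a high tau was particular to strandless transcripts. A tau of at least 0.9 was found for 1553 (26.6%) of the strandless transcripts and 19.3% of all loci tested. A tau under 0.3 was found for 386 (6.61%), against 10.04% of all loci tested. Among transcripts tested with at least 10 fragments in at least 3 libraries the median was 0.736.

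Specificity and calls varied with span. The median tau of tested transcripts was 0.762 at 200 to 249 nt, 0.677 at 300 to 399 nt and 0.752 at 1000 to 1999 nt. Median fragments over the 9 libraries were 13, 42 and 544 in these classes. Flower was called different from root at 28.8% of tested transcripts of 200 to 249 nt and at 49.5% of those of 1000 to 1999 nt. Root enrichment ran from 13.6% at 200 to 249 nt to 20.3% at 1000 to 1999 nt. In transcripts of 2000 nt and more, flower, root and leaf enrichment were 11.6%, 14.2% and 14.2% of 190 tested. With at least 10 fragments in at least 3 libraries, 33.5%, 45.8% and 38.7% were called for flower and leaf, flower and root, and root and leaf. With fewer fragments the shares were 18.2%, 29.6% and 25.7%.

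Whole fragments allow presence to be counted without a test. At least 3 fragments in each library of 1 tissue and 0 in the other 6 libraries were found for 122 transcripts in flower, 190 in root and 103 in leaf. These zeros allow up to 3 fragments per library. Only 61, 127 and 27 of them had passed the FPKM filter. They were modest in number of fragments, with medians over the 3 libraries of 46 in flower, 43.5 in root and 39 in leaf. The highest held 659, 4682 and 778 fragments. The tissue with the highest mean, in contrast, was flower for 4617 (33.05%), root for 3889 (27.8%) and leaf for 5256 (37.6%) of all 13971. Among the 5837 tested the counts were 1880 for flower, 2201 for root and 1756 for leaf.

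The most abundant strandless transcripts belonged to root and flower. In root, MSTRG.24705 (positions 55622 to 55822, 201 nt) had the highest mean. It stood at 1233, 62.5 and 744 FPKM in flowers 1, 2 and 45, at 10688, 16696 and 7047 FPKM in roots 13, 23 and 33, and at 124, 136 and 1861 FPKM in leaf 1, the unnumbered leaf library and leaf 41. It spans 201 nt, so its rank by FPKM was the first while its 21116 fragments rank 20. Root lay above both other tissues, by -4.80 ± 1.28 for flower minus root and 5.09 ± 1.28 for root minus leaf (SE; adjusted p = 0.0121 and 0.0117, limma).

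MSTRG.49293 (positions 428 to 759, 332 nt) averaged 22.8 ± 4.13 FPKM in flower, 1794 ± 719 FPKM in root and 249 ± 397 FPKM in leaf (SD, n = 3 each). The leaf SD comes from leaf 41, at 707 FPKM against 13.1 and 26.7 in the others. MSTRG.11914 (positions 219158 to 219832, 675 nt) averaged 118 ± 60.7 FPKM in flower, 1364 ± 338 FPKM in root and 323 ± 379 FPKM in leaf, with 759 FPKM in leaf 41 against 76.8 and 133. Both were root-enriched, and root minus leaf was 4.71 and 2.75 with leaf 41 and 6.43 and 3.71 without it. Among transcripts of at least 600 nt, MSTRG.44505 (positions 262258 to 264392, 2135 nt) followed at 6.54 ± 4.30 FPKM in flower, 670 ± 250 FPKM in root and 35.5 ± 59.7 FPKM in leaf, where leaf 41 alone reached 104 FPKM.

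In flower, MSTRG.32272 and MSTRG.53721, described above, were followed by MSTRG.30248 (positions 109418 to 110268, 851 nt). It stood at 1282, 1004 and 369 FPKM in flowers 1, 2 and 45, at 0.275, 0.0878 and 0.666 FPKM in roots 13, 23 and 33, and at 12.3, 15.3 and 2.96 FPKM in leaf 1, the unnumbered leaf library and leaf 41. The order of libraries within leaf matches the first of these, with leaf 41 lowest. MSTRG.53788 (positions 29838 to 31060, 1223 nt) differed in that root exceeded leaf. It averaged 803 ± 346 FPKM in flower, 32.6 ± 20.5 FPKM in root and 7.97 ± 3.92 FPKM in leaf (SD, n = 3 each; root minus leaf 1.81 ± 0.57 SE, adjusted p = 0.032, limma). Without leaf 41 that last call was lost (adjusted p = 0.084, limma).

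In leaf, the highest means were MSTRG.24705 and MSTRG.14185, with leaf 41 the highest leaf library in both. MSTRG.14185 (positions 14773 to 15321, 549 nt) stood at 82.0, 88.2 and 63.5 FPKM in flowers 1, 2 and 45, at 799, 1739 and 1398 FPKM in roots 13, 23 and 33, and at 176, 247 and 1196 FPKM in leaf 1, the unnumbered leaf library and leaf 41. Root minus leaf missed the threshold, at 1.74 ± 0.65 (SE; adjusted p = 0.0618, limma), and passed it without leaf 41, at 2.58 (adjusted p = 0.000792, limma). MSTRG.5898 (positions 405248 to 406091, 844 nt) was high in every leaf library, at 355, 498 and 345 FPKM, against 63.4, 57.5 and 47.0 in flower and 15.2, 33.6 and 22.6 in root. It was leaf-enriched, by -2.80 ± 0.31 for flower minus leaf and -4.06 ± 0.31 for root minus leaf (SE; adjusted p = 0.000136 and 2.01e-05, limma). MSTRG.1800 (positions 1650464 to 1651261, 798 nt) reached the list through a single library: 779 FPKM in leaf 41, against 0.206 and 0 in the other leaf libraries and at most 15.5 FPKM elsewhere. No difference was called for it.

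Even levels were rarer. A mean of at least 10 FPKM in every tissue was reached by 137 transcripts. That is a limit on level and not on evenness, and MSTRG.24705, with a tau of 0.940, also passed it. The 3 of lowest tau among the 137 are given here. MSTRG.5885 (positions 762361 to 764319, 1959 nt, tau 0.0546) averaged 18.5 ± 10.98 FPKM in flower, 17.4 ± 2.46 FPKM in root and 17.5 ± 8.14 FPKM in leaf. MSTRG.44375 (positions 226504 to 227215, 712 nt, tau 0.0981) averaged 28.7 ± 13.05, 23.8 ± 4.53 and 27.9 ± 15.2 FPKM in the same tissues (SD, n = 3 each). Flower 2 and leaf 41 were the lowest libraries of their tissue in both. MSTRG.34149 (positions 129926 to 130203, 278 nt, tau 0.0884) had even means but uneven libraries, from 0 in flower 2 to 26.3 FPKM in flower 1, so its low tau does not show a steady level.

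The 3 longest transcripts tested had low levels. MSTRG.35685 (positions 35903 to 41486, 5584 nt) stood at 0.0208, 0 and 0.124 FPKM in flowers 1, 2 and 45, at 0.0586, 0.117 and 0.0630 FPKM in roots 13, 23 and 33, and at 1.74, 1.22 and 4.59 FPKM in leaf 1, the unnumbered leaf library and leaf 41, and was leaf-enriched. MSTRG.29178 (positions 233196 to 238572, 5377 nt) was flower-enriched, at 4.43 ± 0.912 FPKM in flower, 0.0985 ± 0.0520 FPKM in root and 0.814 ± 0.422 FPKM in leaf. MSTRG.14857 (positions 412596 to 417928, 5333 nt) averaged 0.263 ± 0.0228 FPKM in flower, 0.370 ± 0.0676 FPKM in root and 1.61 ± 0.364 FPKM in leaf (SD, n = 3 each). Flower was called lower than leaf there (-1.04 ± 0.20 SE, adjusted p = 0.00282, limma), while root minus leaf, at -0.92 ± 0.20, fell short of the size required. On recovered fragments it passed, at -2.09 (adjusted p = 0.0015, limma).

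Neighbours were read from locus numbers, which follow position along a scaffold in most places. A locus was taken as a neighbour when its number was 1 lower or higher and starts ascended without overlap, which gave a neighbour for 12256 transcripts (87.7%). That both lie on the same scaffold is inferred from this order. The nearest neighbour lay under 1000 nt away for 1510 transcripts (10.8%), and it was another strandless transcript of the group for 860 of these and an annotated locus for 172 (11.4%). At 10000 to 99999 nt it was annotated in 37.1% of 5228 cases.

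The share of neighbours with the highest mean in the same tissue fell with distance. Where both were tested, the tissue with the highest mean was the same in 208 of 371 pairs under 1000 nt (56.1%), in 43.6% of 850 pairs at 1000 to 9999 nt and in 37.4% of 1391 pairs at 10000 to 99999 nt. Over all consecutive tested loci the shares at these distances were 48.1%, 40.2% and 34.5%. With an annotated neighbour they were 46.2% of 78, 42.8% of 320 and 38.8% of 709. These are descriptions, since pairs share libraries and loci.

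Strandless transcripts were also found at the first bases of a scaffold. A start at position 50 or lower was seen for 443 of them (3.17%), against 237 stranded intergenic transcripts alone at their locus (2.14%) and 115 annotated loci (0.378%). These 443 had a median span of 824 nt, and 252 passed the FPKM filter.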

How the data were processed

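RNA was measured in 3 flower, 3 root and 3 leaf libraries. Per the submitters' processing notes, HISAT2, StringTie and Cuffnorm were used; the sources used here give no version, setting, strand use or build for them. The authors deposited 1 table of FPKM per assembled transcript, and no column was left unused (0). Columns were matched by title; 1 leaf column matched no title and entered as the unnumbered leaf library.

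FPKM were summed per locus, and limma 3.58.1 (in R 4.3.3) was run on log2(FPKM + 1) of loci reaching 1 FPKM in 3 or more libraries. The fit had a variance trend and 1 mean per tissue (6 residual degrees of freedom), with Benjamini-Hochberg adjustment over all loci. Library-level values were compared by exact permutation tests in scipy 1.17.1. Fragments per value were recovered from the FPKM steps of spans of 600 to 3000 nt and followed down to 200 nt. Under 400 nt the step was reset at each span from its own values where these allowed it. Intervals for a count of 0 use 3 fragments and cover counting error only. The fit was tested on simulated data for root minus leaf (36342 loci). It called 76% of 100 loci changed by 3, 23% of 100 changed by 1.5 on the log2 scale, and 0.0111% of unchanged ones. No other loci were changed there, whereas 35.3% to 44.4% of loci were called in the data. The simulated noise was normal, with spreads drawn at random over loci and no library standing apart. These rates therefore hold for the simulated setting only. The highest share of identical values above 0 in a pair of libraries was 0.00716%.

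Named transcripts are the 2 with the largest called difference without overlap in each direction of each comparison, the 3 highest means per tissue (all spans, and at least 600 nt), the 3 longest tested and the 3 of lowest tau. The transcripts, their rule and the lists were chosen with earlier results of these data known. No table of gene names applies to them, so no gene list was tested. Alternatives covered the pseudocount, filter, scaling, variance model, unit of analysis, span, recovered fragments and each library left out.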

Additional observations from a re-analysis of the deposited data

How the results depend on the processing

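Over 13 alternatives that leave out no library, 63 of 78 counts of called or enriched transcripts stayed within 1.5 times the reported count, as did all 54 counts with a library left out. Calls with a library left out ran from 1382 to 1675 for flower minus leaf, 2046 to 2508 for flower minus root and 1581 to 2353 for root minus leaf; enriched transcripts ran from 605 to 758 in flower, 855 to 1113 in root and 348 to 534 in leaf. With a pseudocount of 5, which shrinks low values by construction, calls were 634, 924 and 742 in these comparisons, and 315, 403 and 142 were enriched in flower, root and leaf. A filter of FPKM 5 left 1478 transcripts, with 668, 872 and 759 calls and 271, 379 and 126 enriched. Array weights gave 3020 calls for root minus leaf; the cause was not tested. Without transcripts under 400 nt, which leaves 3471 tested, 659 were root-enriched and 263 leaf-enriched. The setting of at least 10 fragments in at least 3 libraries was added after seeing the data and gave 1226, 1663 and 1411 calls among 3619 transcripts. Of the library-level values, 3 of 76 turned round: the share of summed FPKM for flower minus root became 0.724 percentage points without transcripts under 400 nt and 0.419 without the 10 highest, and the number detected for flower minus leaf became 21.7 without transcripts under 400 nt. The 264 values of the 11 transcripts named for their differences kept direction and call. These were chosen as the largest differences of the same data, so that outcome was nearly fixed beforehand. No paired analysis was possible because among columns matched to a title a single number, 1, is shared between tissues (by a flower and a leaf library). Depth limits short transcripts most, where 3 fragments can exceed the FPKM limit of 1.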
